A study of Mus musculus with 4 samples.

Results

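Acid secretion by parietal cells of the gastric corpus is set by a small group of hormones and receptors. Histamine made by enterochromaffin-like (ECL) cells, gastrin and acetylcholine stimulate it, and somatostatin and prostaglandin E2 restrain it. Histamine raises cyclic AMP in parietal cells through the H2 receptor, gastrin acts largely by releasing histamine from ECL cells through the gastrin receptor, and acetylcholine raises calcium through the muscarinic M3 receptor. Somatostatin from D cells acts through receptors that lower cyclic AMP, as does prostaglandin E2 through its EP3 receptor, while the EP4 receptor raises cyclic AMP.

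The genes described here are the 8 named for that control, Hdc, Hrh2, Cckbr, Chrm3, Sst, Sstr2, Ptger3 and Ptger4, chosen by symbol through their Ensembl identifiers. All 8 were among the 34866 rows of the table of counts, and all 8 were among the 14067 genes left by the filter on low counts. RNA sequencing compared the gastric mucosa of the corpus of Muc6 -/- mice (knockout, 2 libraries) with that of Muc6 +/+ mice (wild type, 2 libraries), and the series asks how loss of this gland mucin relates to gastric carcinogenesis. The sources used here give no strain, age or way of making the allele. The labels leave unsaid whether each library is a separate mouse, so p-values reflect only how far these samples vary, possibly for technical reasons.

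Total counts were 20327623 and 21716996 in knockout 1 and 2 and 27946313 and 20895651 in wild type 1 and 2. The mitochondrial share of counts was 5.97% and 5.41% in knockout and 9.39% and 8.73% in wild type, so it moved with genotype beside every gene below, and its part in their values was not tested. Muc6 had 0 and 10 counts in the knockout libraries, against 8542 and 6000 in wild type. Knockout 1 stood apart from the other 3 libraries. It held 2716 counts of Nkx6-3, 1316 of Pdx1 and 218 of Gast, all genes of the antrum, against 11, 61 and 0 in knockout 2 and at most 9, 7 and 1 in wild type, and so each of the 8 genes is given with and without it. Mia2, also listed as antral, was abundant in every library, with 2942 and 4182 counts in knockout against 4888 and 3560 in wild type. At that level in wild-type corpus it does not tell antrum from corpus here. Squamous forestomach markers summed to 155 and 12.4 CPM (counts scaled to library size) in knockout and 0.847 and 0.260 CPM in wild type, and fibroblast markers to 61.3 and 434 CPM in knockout against 44.3 and 461 CPM in wild type. Y-linked transcripts also differed by genotype (4 genes summing to 1.44 and 2.44 CPM in knockout and 136 and 121 CPM in wild type), so that for every gene below the genotype and this difference cannot be told apart.

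In the fit across all genes 7 of the 8 were lower in knockout, beside 50.1% of all genes tested, and 1, Ptger4, was higher. None passed edgeR's quasi-likelihood test at an adjusted p of 0.05, and neither did any other gene tested (0%). At an unadjusted p under 0.05, edgeR called 2236 genes (15.9%), among them Hdc as lower, like 6.68% of genes, and Ptger4 as higher, like 9.22%. DESeq2 called 1044 genes at the adjusted threshold (7.42%), and the 2 of the 8 it called were Hdc, lower like 3.36% of genes, and Ptger4, higher like 4.06%. Without knockout 1 edgeR called none of the 8 (0.0615% of genes), and without knockout 2 it called Hrh2, Chrm3 and Ptger3 as lower (3.41% of genes). The libraries of the 2 genotypes did not overlap for 5 of the 8, of which 4 were lower in knockout (23.8% of all genes tested were) and 1 was higher (26.3%). The median log2 fold change of the 8 was -1.20, beside -0.0017 over all genes tested, and it was -0.43 without knockout 1. A log2 fold change of -1 or lower was fitted for 4 of the 8, beside 7.42% of all genes tested, and one of 1 or higher for Ptger4 alone, beside 8.13%.

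**Figure D1:**
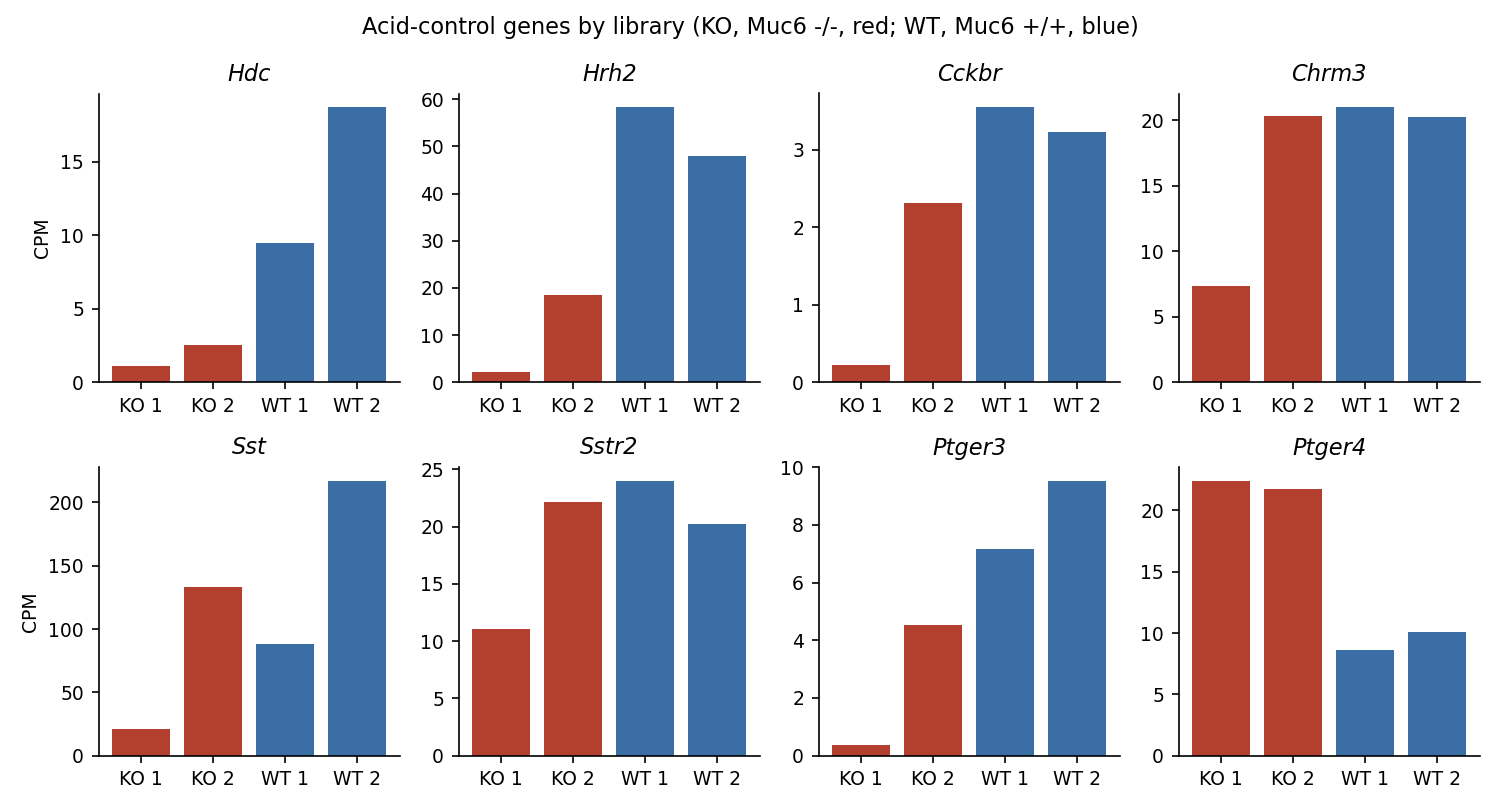
CPM (counts scaled to library size) of each of the 8 genes in each library; bars are single libraries, knockout (KO) in red and wild type (WT) in blue, each panel with its own axis from 0. Ptger4 sits at 22.4 and 21.7 CPM in knockout and 8.63 and 10.1 CPM in wild type, while Hdc, Hrh2, Cckbr and Ptger3 are lower in both knockout libraries.

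Hdc encodes histidine decarboxylase, which makes histamine in ECL cells and in mast cells. It had 25 and 62 counts in knockout 1 and 2, against 235 and 359 in wild type 1 and 2, or 1.12 and 2.56 CPM in knockout against 9.48 and 18.7 CPM in wild type. Both knockout libraries lay well below both wild-type libraries, although the wild-type libraries themselves differed about as much as the knockout ones. This gave a log2 fold change of -2.93 ± 0.60 (SE, n = 2 libraries each), a 7.62-fold lower level. Its adjusted p was 0.226 in edgeR and 4.8e-04 in DESeq2. Only 0.441% of the genes tested had a lower log2 fold change. Without knockout 1 it was -2.52 ± 0.63 (edgeR adjusted p = 0.285).

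Slc18a2 encodes the vesicular transporter that loads histamine into ECL granules. It was at 2.38 and 8.47 CPM in knockout and at 15.5 and 26.4 CPM in wild type, without overlap (log2 fold change -1.94 ± 0.71, edgeR adjusted p = 0.316). The log2 fold change was -3.20 without knockout 2, resting on knockout 1 alone. As log2 CPM minus the wild-type mean, Slc18a2 was at -3.04 in knockout 1 and at -1.25 in knockout 2. Chga, the granule protein chromogranin A of ECL and other endocrine cells, had 10.2 and 72.3 CPM in knockout, against 120 and 292 CPM in wild type. The 12 markers listed for ECL and enteroendocrine cells, Chga included, summed to 66.9 and 121 CPM in knockout and 176 and 381.5 CPM in wild type, and of the 10 tested 7 were lower and 3 higher. They were not alike. Ddc, the decarboxylase that makes serotonin and dopamine, had 16.99 and 9.33 CPM in knockout and 3.95 and 5.57 CPM in wild type, higher without overlap (log2 fold change 1.47 ± 0.40, edgeR adjusted p = 0.250). Slc18a1, the other vesicular monoamine transporter, was also higher, at 1.21 and 0.743 CPM in knockout and 0.525 and 0.573 CPM in wild type. The granule proteins Chgb and Scg2 and the serotonin enzyme Tph1 overlapped between the genotypes, with log2 fold changes of -0.11, 0.07 and -0.06. In bulk mucosa, fewer cells of a type and less RNA per cell cannot be told apart.

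Set against that sum, Hdc stood at 16.8 and 21.1 CPM per 1000 marker CPM in knockout and at 54.0 and 49.0 in wild type, which is lower in both knockout libraries. Set against Chga alone the genotypes overlapped, at 110 and 35.4 CPM per 1000 in knockout and 79.1 and 64.0 in wild type. The Hdc ratio thus depended on the marker chosen, and with 2 libraries against 2 an exact permutation test cannot give a p below 0.333. Mast cell markers, the other known source of Hdc, summed to 149 and 233 CPM in knockout and 225 and 201 CPM in wild type, with 3 of 9 higher and 6 lower, and their part in the Hdc values was not tested. Enzymes that break histamine down were close between the genotypes or varied within one. Hnmt, the histamine methyltransferase, was at 2.87 and 4.38 CPM in knockout against 3.15 and 4.06 CPM in wild type.

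Hrh2 encodes the H2 receptor, the parietal cell's receptor for histamine and the target of H2 blockers. It had 48 and 448 counts in knockout, against 1445 and 920 in wild type, or 2.15 and 18.5 CPM in knockout against 58.3 and 47.9 CPM in wild type. The genotypes did not overlap, and the knockout libraries differed from each other far more than the wild-type ones did. In the fit Hrh2 had a log2 fold change of -2.36 ± 1.03 (SE, n = 2 libraries each; edgeR adjusted p = 0.371, DESeq2 adjusted p = 0.0770). Without knockout 1 it was -1.57 ± 0.16 with an edgeR adjusted p of 0.143, and without knockout 2, resting on knockout 1 alone, it was -4.67 ± 0.20 with an adjusted p of 0.0106. Hrh2 was the only one of the 8 whose deposited values were not whole numbers, as estimated counts are where reads fit more than 1 gene. It shares 145 exon bases with the antisense gene Gm16578, for which the counts held no row by symbol. Whether that overlap bears on the values that were not whole was not tested.

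The region before the Hrh2 start is shown with those of Ptger3, another receptor that was lower in both knockout libraries, and of Ptger4, the receptor that was higher, so that receptor genes that differed in opposite directions can be read side by side. The sequences are RefSeq's on GRCm38.p6, from chr13:54192039-54192128 (plus strand), chr3:157566786-157566875 (plus strand) and chr15:5244188-5244307 (minus strand), 5′ to 3′, each ending just before the start of transcription, with GC boxes (GGGCGG, both strands) in capitals.
Hrh2: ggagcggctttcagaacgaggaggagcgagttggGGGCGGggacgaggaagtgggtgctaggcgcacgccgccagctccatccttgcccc
Ptger3: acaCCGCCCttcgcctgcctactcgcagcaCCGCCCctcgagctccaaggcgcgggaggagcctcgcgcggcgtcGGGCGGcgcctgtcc
Ptger4: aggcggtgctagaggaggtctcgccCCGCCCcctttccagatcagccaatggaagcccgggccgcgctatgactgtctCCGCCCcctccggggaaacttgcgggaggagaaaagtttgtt
A GC box was found in the windows of 5 of the 8 genes (250 bases before to 50 after the start), beside 35.7% of all 32851 RefSeq windows, and so it was present upstream of genes that were lower and of the one that was higher. TATAAA (both strands) was found in none of the 8, beside 13.6% of all windows, and AAGGTCA, a core site of estrogen-related receptors (both strands), in none, beside 4.72%. CCAAT (both strands) was found in 2 of the 8, Cckbr and Ptger4, beside 37.4% of all windows. In the Ptger4 stretch above it is left in small letters.

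Cckbr encodes the gastrin (CCK2) receptor of ECL and parietal cells. It was the least abundant of the 8, with 5 and 56 counts in knockout against 88 and 62 in wild type (0.224 and 2.31 CPM in knockout against 3.55 and 3.23 CPM in wild type). Knockout 2 lay under both wild-type libraries, and knockout 1 was far below all others. Its log2 fold change was -1.41 ± 1.12 (SE, n = 2 libraries each; edgeR adjusted p = 0.612), and without knockout 1 it was -0.60 ± 0.55. Gast, the gene of its ligand gastrin, was at 218 counts in knockout 1 and at 0 in knockout 2, against 1 and 0 in wild type, and did not pass the filter on low counts. G cells that make gastrin belong to the antrum, and the antral markers Nkx6-3 and Pdx1 were also high in that library. Mia2, the other gene listed as antral, was abundant in every library and does not tell antrum from corpus here.

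Chrm3 encodes the muscarinic M3 receptor, which parietal cells share with smooth muscle. It was at 7.31 and 20.3 CPM in knockout and at 20.98 and 20.2 CPM in wild type. Knockout 2 lay within the wild-type values and only knockout 1 was low, so the genotypes overlapped. Its fitted log2 fold change of -0.58 ± 0.52 (SE, n = 2 libraries each; edgeR adjusted p = 0.660) was little larger than its error, and without knockout 1 it was -0.07 ± 0.14. Smooth muscle markers summed to 447 and 2147 CPM in knockout and to 332 and 2056 CPM in wild type, thus following the library number rather than the genotype. Their part in the Chrm3 values was not tested.

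Sst encodes somatostatin, the D cell peptide that inhibits ECL and parietal cells. It was at 20.7 and 133 CPM in knockout and at 88.5 and 217 CPM in wild type. Knockout 2 lay between the wild-type libraries, and knockout 1 was below all others. The log2 fold change of -0.99 ± 1.01 (SE, n = 2 libraries each; edgeR adjusted p = 0.700) was no larger than its error, and it was -0.26 ± 0.77 without knockout 1. Within each genotype the library numbered 2 had the higher level. With the replicate number as a block the log2 fold change was -1.39 ± 0.42 (edgeR adjusted p = 0.195).

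Hhex, a transcription factor of D cells, was slightly above wild type in both knockout libraries, and Isl1 overlapped between the genotypes. Hhex was at 1.66 and 1.73 CPM in knockout and at 1.09 and 1.61 CPM in wild type. Isl1, an islet-type endocrine transcription factor, had 3.54 and 15.2 CPM in knockout, against 5.73 and 12.4 CPM in wild type. Over the sum of ECL and enteroendocrine markers, Sst stood at 310 and 1099 CPM per 1000 marker CPM in knockout and 504 and 569 in wild type, with the wild-type libraries between the knockout ones. Over Chga alone it was higher without overlap, at 2035 and 1844 CPM per 1000 in knockout and 738 and 743 in wild type. The Sst ratio thus depended on the marker chosen.

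Sstr2 encodes the somatostatin receptor of ECL and parietal cells. It was at 11.1 and 22.2 CPM in knockout and at 24.0 and 20.2 CPM in wild type. Knockout 2 lay between the wild-type libraries. A log2 fold change of -0.41 ± 0.38 (SE, n = 2 libraries each; edgeR adjusted p = 0.668) was fitted, and one of -0.04 ± 0.16 without knockout 1.

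Somatostatin and its receptor gene share one promoter feature, shown here because the Sst site is a textbook cyclic AMP response element and these were the 2 of the 8 that hold it. The capitals mark TGACGTCA, which reads the same on both strands, in RefSeq sequence on GRCm38.p6, 5′ to 3′, from chr16:23890874-23890903 (minus strand) and chr11:113619237-113619326 (plus strand).
Sst: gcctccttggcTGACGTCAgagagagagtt
Sstr2: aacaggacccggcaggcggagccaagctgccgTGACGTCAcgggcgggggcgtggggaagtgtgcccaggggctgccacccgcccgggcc
The match began 48 bases before the RefSeq start of Sst and 58 bases before that of Sstr2. GENCODE M21 puts the 5′ end of Sst at chr16:23890958, so by that annotation the printed Sst stretch lies within the gene. Of all RefSeq windows 1.79% held it. Neither gene passed the test in either direction, as given above.

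Ptger3 encodes EP3, the inhibitory prostaglandin E2 receptor of parietal cells. It had 8 and 110 counts in knockout against 178 and 183 in wild type (0.359 and 4.54 CPM in knockout against 7.18 and 9.53 CPM in wild type). Both knockout libraries were below wild type, knockout 1 by far the more. Its fit gave a log2 fold change of -1.76 ± 1.17 (SE, n = 2 libraries each; edgeR adjusted p = 0.536). Without knockout 1 it was -0.93 ± 0.37 (adjusted p = 0.400), and without knockout 2 it was -4.58 ± 0.53 (adjusted p = 0.0339).

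Ptger4 encodes EP4, which raises cyclic AMP and is found on gastric epithelial, stromal and immune cells. It had 500 and 526 counts in knockout against 214 and 193 in wild type, or 22.4 and 21.7 CPM in knockout against 8.63 and 10.1 CPM in wild type. Unlike the other receptors, it was nearly level between the 2 knockout libraries and well above both wild-type libraries. It had a log2 fold change of 1.24 ± 0.16 (SE, n = 2 libraries each), a 2.36-fold higher level, and its adjusted p was 0.181 in edgeR and 0.00121 in DESeq2. By p it ranked 94th of the 14067 genes. Without knockout 1 it was 1.17 ± 0.21 (edgeR adjusted p = 0.203).

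Ptger4 shares exon bases on the other strand with the pseudogene Gm15937 (1015 bases), which had 0 counts in all 4 libraries, and with Ttc33 (82 bases), and the sources used here do not say whether the counting used strand. Ttc33 was at 14.5 and 15.2 CPM in knockout and at 18.6 and 18.2 CPM in wild type, so it was lower where Ptger4 was higher. Leukocyte markers, whose cells can carry EP4, summed to 14.4 and 26.1 CPM in knockout and to 13.8 and 50.6 CPM in wild type. Of those tested 1 was higher and 5 were lower in knockout, and the sums overlapped between the genotypes. Markers of proliferating cells summed to 380 and 321 CPM in knockout and to 192 and 137 CPM in wild type, with 5 of 5 higher without overlap. Mucous neck and metaplasia markers summed to 12610 and 8180 CPM in knockout against 1046 and 722 CPM in wild type, with 6 of 6 higher without overlap. Of all genes tested 26.3% were higher without overlap. Both marker lists thus moved with Ptger4, as that share of all genes did, and the part of these markers in its values was not tested.

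**Figure D2:**
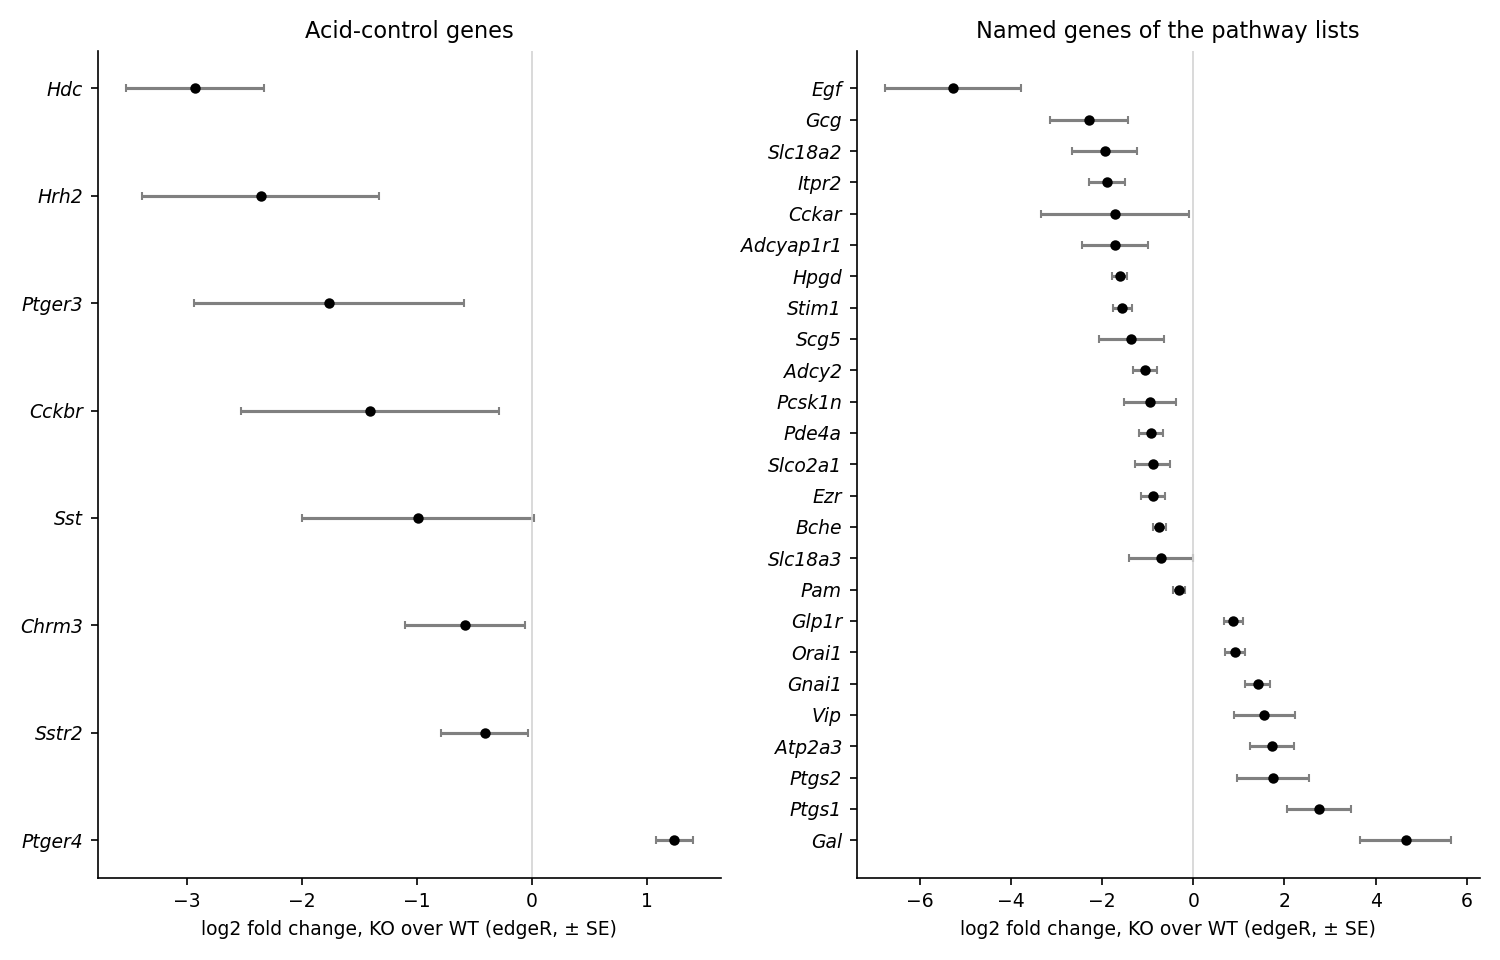
Fitted log2 fold change, knockout over wild type, with its standard error (edgeR, n = 2 libraries per genotype), for the 8 acid-control genes (left) and for the genes named from the lists of the surrounding pathway (right). Points left of 0 are lower in knockout; Hdc at -2.93 is the lowest of the 8 and Ptger4 at 1.24 the only one above 0, and none passed the adjusted threshold.

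The levels per kilobase of the longest coding transcript gave the order of the 8 within a genotype. In knockout Sst averaged 107 CPM per kilobase, Sstr2 7.76, Ptger4 6.66, Chrm3 3.18, Hrh2 2.54, Ptger3 0.779, Hdc 0.770 and Cckbr 0.493. In wild type Sst averaged 212 CPM per kilobase, Hrh2 13.0, Sstr2 10.3, Hdc 5.89, Chrm3 4.75, Ptger4 2.82, Ptger3 2.66 and Cckbr 1.32. Hrh2 was thus the most abundant receptor of the set in both wild-type libraries, at 14.3 and 11.8 CPM per kilobase against 11.2 and 9.43 for Sstr2. In the knockout libraries Hrh2, at 0.528 and 4.54 CPM per kilobase, was below Sstr2, Ptger4 and Chrm3. Among neighbours in the wild-type order, Hdc and Chrm3 overlapped between libraries and so did Ptger4 and Ptger3. In the knockout order Sst stood apart from Sstr2 and Ptger4 from Chrm3, and the other neighbours overlapped.

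Parietal cell markers were lower in the same libraries. The 12 listed, led by the proton pump subunits Atp4a and Atp4b, summed to 1041 and 6299 CPM in knockout and to 19370 and 18680 CPM in wild type. All 12 were lower without overlap, beside 23.8% of all genes tested. As log2 CPM minus the mean of wild type, their median was -3.82 in knockout 1 and -1.40 in knockout 2. On the same scale Hrh2 was at -4.56 and -1.51, and Ptger3 at -4.23 and -0.85. Cckbr was at -3.47 and -0.53. Chrm3 was at -1.48 and -0.022, and Sstr2 at -0.99 and 0.0097, so both were nearer to wild type than the parietal markers in each knockout library.

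**Figure D3:**
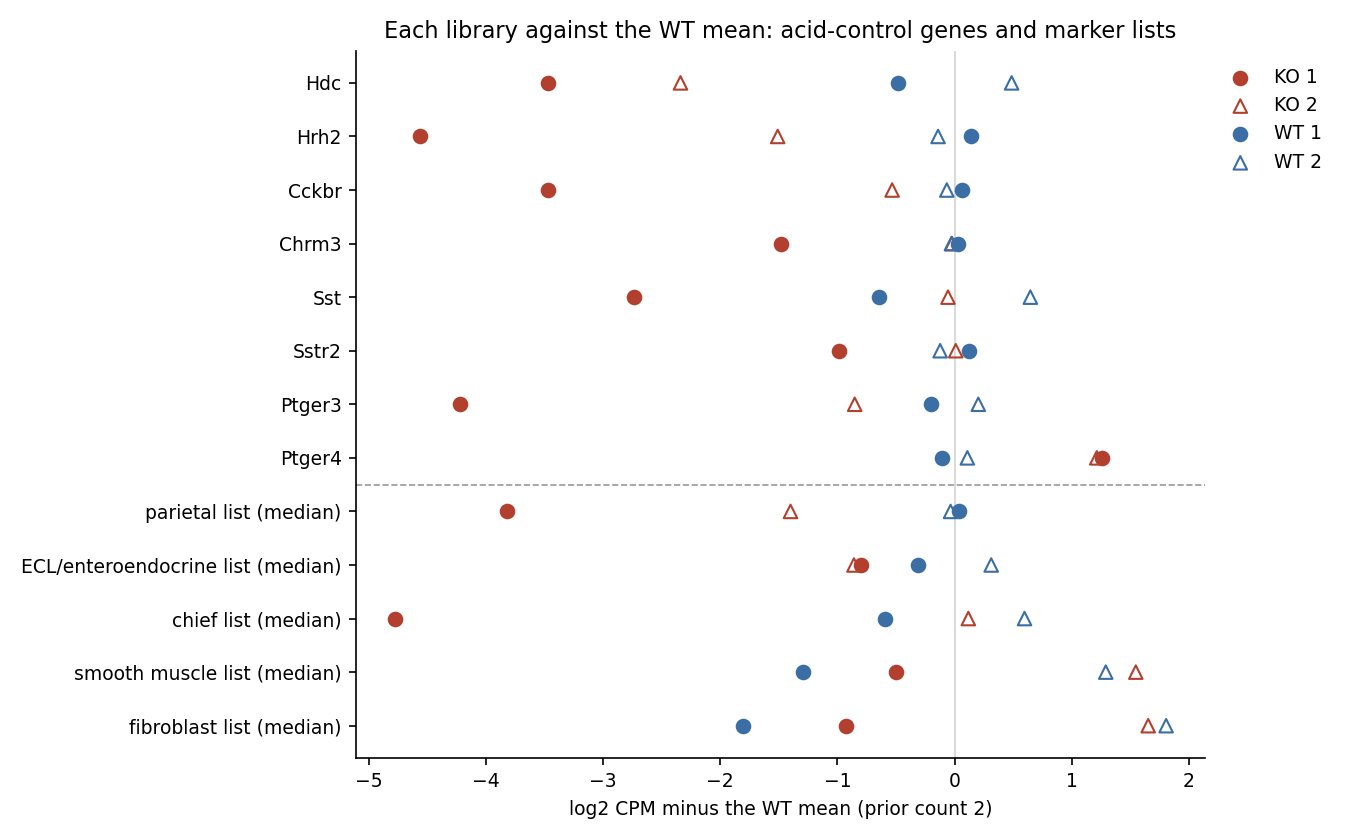
Log2 CPM of each library minus the wild-type mean (prior count of 2) for the 8 acid-control genes and, under the dashed line, for the medians of 5 marker lists; red, knockout, blue, wild type, circles, libraries numbered 1, triangles, libraries numbered 2. Hrh2, at -4.56 and -1.51 in knockout, lies close to the parietal median at -3.82 and -1.40, Ptger4 lies above 0 in both knockout libraries, and the smooth muscle and fibroblast medians separate by library number.

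Divided by the summed parietal markers, the receptors differed in pattern. Hrh2 stood at 2.07 and 2.94 CPM per 1000 parietal marker CPM in knockout and at 3.01 and 2.57 in wild type, so the genotypes overlapped. Ptger3 also overlapped, at 0.345 and 0.721 CPM per 1000 in knockout and 0.371 and 0.510 in wild type. Chrm3, in contrast, stood at 7.02 and 3.22 CPM per 1000 in knockout and 1.08 and 1.08 in wild type, and Sstr2 at 10.6 and 3.52 in knockout and 1.24 and 1.08 in wild type. For both, each knockout library was above each wild-type library. Cckbr, at 0.215 and 0.367 in knockout and 0.183 and 0.173 in wild type, was above wild type by less. Chrm3 and Sstr2 were also above wild type in both knockout libraries when set against Atp4b alone or against the sum without Atp4a and Atp4b. The Hrh2 ratio changed direction with the markers. Against Atp4b alone it was 14.5 and 13.96 CPM per 1000 in knockout and 13.6 and 11.7 in wild type, and against the sum without Atp4a and Atp4b it was 3.99 and 11.3 in knockout and 12.8 and 11.6 in wild type. Ptger3 and Cckbr depended on the markers too. Against Atp4b alone Ptger3 was higher without overlap, at 2.41 and 3.43 CPM per 1000 in knockout and 1.67 and 2.32 in wild type, as was Cckbr, at 1.51 and 1.745 in knockout and 0.826 and 0.788 in wild type. Against the sum without Atp4a and Atp4b both overlapped between the genotypes. Chrm3 and Sstr2 are also expressed outside parietal cells, and these ratios have no test.

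**Figure D4:**
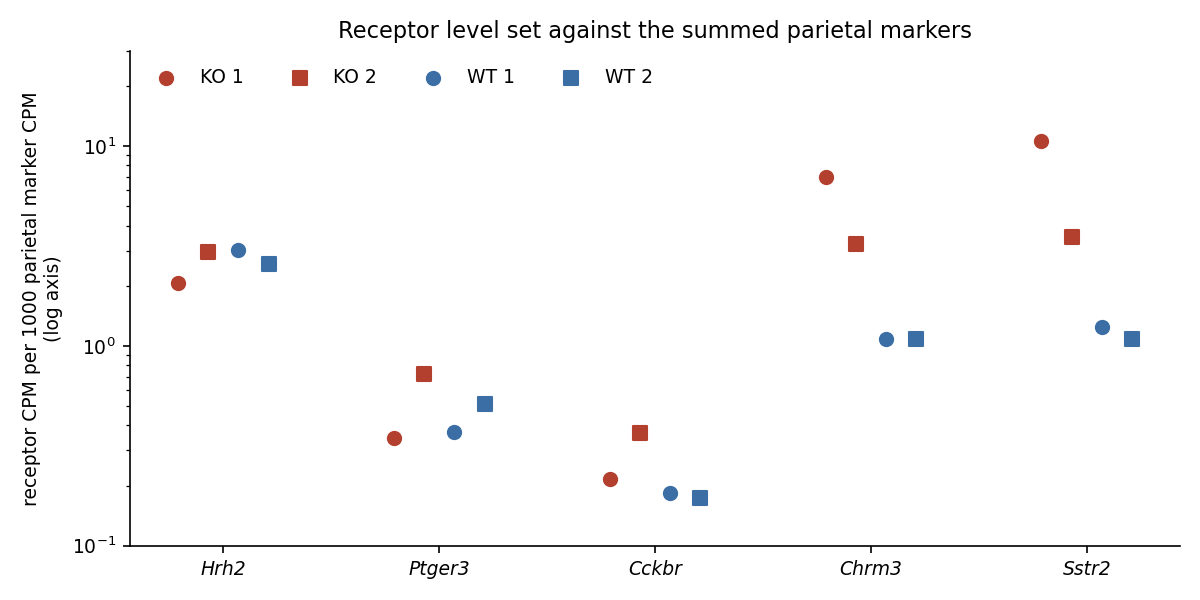
CPM of 5 receptor genes per 1000 CPM of the 12 summed parietal markers, on a log axis; each point is 1 library, knockout (KO) in red and wild type (WT) in blue. Hrh2 and Ptger3 overlap between the genotypes, whereas Chrm3 at 7.02 and 3.22 and Sstr2 at 10.6 and 3.52 in knockout lie above the wild-type points near 1.08 to 1.24.

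The other genes of this control system went both ways. Of 16 other ligand genes 8 were tested, 5 higher and 3 lower in knockout, and of 27 other receptor genes 12 were tested, 4 higher and 8 lower. None of the genes in the pathway lists passed over all genes by edgeR. DESeq2 called 9, all named here and marked, beside 7.42% of all genes tested. The lists held 8 ligand, 12 receptor, 4 histamine, 4 acetylcholine, 11 prostaglandin, 7 peptide processing, 21 cyclic AMP and 18 calcium genes tested. Genes were named for a small p, so the share called among those named alone is raised by that choice. Egf, a growth factor that also inhibits acid secretion, was at 0.0897 and 4.25 CPM in knockout and at 118 and 51.9 CPM in wild type (log2 fold change -5.27 ± 1.49, edgeR adjusted p = 0.255). Gal, the neuropeptide galanin, had 15.4 and 3.10 CPM in knockout, against 0.403 and 0.312 CPM in wild type (4.66 ± 1.002, edgeR adjusted p = 0.228, DESeq2 adjusted p = 1.6e-04). Vip, an enteric nerve peptide, had 37.6 and 13.1 CPM in knockout, against 5.53 and 11.7 CPM in wild type, and Gcg, the glucagon gene, had 0.135 and 0.454 CPM in knockout against 1.82 and 1.09 CPM in wild type. Several of these differences were smaller without knockout 1. The log2 fold change was then 3.05 for Gal, -4.35 for Egf and 0.54 for Vip, against 4.66, -5.27 and 1.56 with all libraries. Without knockout 2 it was 5.35 for Gal and -9.84 for Egf.

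Among the other receptors, Adcyap1r1, the receptor by which the nerve peptide PACAP stimulates ECL cells, was at 4.71 and 19.9 CPM in knockout and at 41.7 and 39.0 CPM in wild type (log2 fold change -1.71 ± 0.72, edgeR adjusted p = 0.361). Cckar, the cholecystokinin receptor of chief and D cells, had 0.762 and 39.2 CPM in knockout, against 41.3 and 89.8 CPM in wild type. Without knockout 1 the log2 fold change was -1.07 for Adcyap1r1 and -0.80 for Cckar, and without knockout 2 it was -3.15 and -6.48. Chief cell markers were also far lower in knockout 1, summing to 2453 and 95380 CPM in knockout and 84310 and 178900 CPM in wild type. Unlike Cckar, these sums overlapped between the genotypes. Pgc alone had 2238 and 79870 CPM in knockout against 63620 and 145500 CPM in wild type. Of the 5 tested 4 were fitted lower and 1, Pga5, higher, at 38.6 and 231 CPM in knockout against 101 and 114 CPM in wild type. Glp1r, the receptor of the incretin GLP-1, was higher, at 11.9 and 15.4 CPM in knockout against 7.50 and 7.29 CPM in wild type (0.88 ± 0.21, edgeR adjusted p = 0.233).

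Genes that make and clear prostaglandin E2, the ligand of Ptger3 and Ptger4, numbered 11 tested, of which 7 were higher and 4 lower. Ptgs1, the cyclooxygenase COX-1, was at 72.3 and 67.3 CPM in knockout and at 4.20 and 16.6 CPM in wild type (log2 fold change 2.76 ± 0.71, edgeR adjusted p = 0.243, DESeq2 adjusted p = 0.00166). Ptgs2, the inducible COX-2, had 5.02 and 3.39 CPM in knockout, against 0.524 and 1.98 CPM in wild type. Hpgd, which inactivates prostaglandins, was at 91.7 and 94.9 CPM in knockout and at 279 and 290 CPM in wild type (-1.61 ± 0.16; adjusted p = 0.178 in edgeR and 1.2e-19 in DESeq2). Slco2a1, the transporter that takes prostaglandins up for breakdown, had 168 and 98.2 CPM in knockout, against 298 and 194 CPM in wild type. Without wild type 1 the log2 fold change of Ptgs1 was 2.08 and without wild type 2 it was 4.05. Ptgs1 is also a tuft cell gene, and tuft markers, a sum that contains Ptgs1 itself, came to 500 and 298 CPM in knockout and to 307 and 224 CPM in wild type. Dclk1, another tuft marker, was at 37.4 and 36.4 CPM in knockout and at 20.8 and 24.5 CPM in wild type. Their part in the Ptgs1 values was not tested.

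Below the receptors, of 21 genes of the cyclic AMP arm 7 were higher and 14 lower, with a median log2 fold change of -0.39. Gnas, the stimulatory G protein used by the H2 receptor, was at 388 and 368 CPM in knockout and at 473 and 453 CPM in wild type (-0.29 ± 0.19, edgeR adjusted p = 0.518). Gnai1, an inhibitory G protein, had 60.1 and 39.7 CPM in knockout, against 16.3 and 21.1 CPM in wild type (1.42 ± 0.28, edgeR adjusted p = 0.214, DESeq2 adjusted p = 0.00431). Ezr, the membrane linker ezrin of the parietal cell canaliculus, had 1012 and 904 CPM in knockout, against 1978 and 1552 CPM in wild type (DESeq2 adjusted p = 0.00161). Adcy2, an adenylate cyclase, had 4.98 and 6.48 CPM in knockout, against 13.4 and 10.5 CPM in wild type, and Pde4a, a cyclic AMP phosphodiesterase, had 5.11 and 7.52 CPM in knockout against 12.5 and 11.5 CPM in wild type. Gnas was picked from the list after its values were seen.

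Of 18 genes of the calcium arm 8 were higher and 10 lower (median -0.09). Stim1, the calcium sensor of the endoplasmic reticulum, was at 23.0 and 31.9 CPM in knockout and at 81.6 and 79.7 CPM in wild type (log2 fold change -1.55 ± 0.21, edgeR adjusted p = 0.189, DESeq2 adjusted p = 7.8e-07). Itpr2, a calcium release channel, had 12.2 and 25.3 CPM in knockout, against 67.8 and 71.8 CPM in wild type (DESeq2 adjusted p = 4.1e-04). Its log2 fold change was -1.90, and -2.57 without knockout 2. As log2 CPM minus the wild-type mean, Itpr2 was at -2.51 in knockout 1 and at -1.46 in knockout 2. Orai1, the plasma membrane channel that Stim1 opens, was higher, at 25.2 and 18.4 CPM in knockout against 12.2 and 10.99 CPM in wild type. Atp2a3, a calcium pump of the endoplasmic reticulum, had 1178 and 538 CPM in knockout, against 304 and 212 CPM in wild type (DESeq2 adjusted p = 0.00453). Its log2 fold change was 1.73, and 1.02 without knockout 1.

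Of 4 genes tested that handle acetylcholine 1 was higher and 3 were lower. Bche, the butyrylcholinesterase, was at 25.5 and 28.9 CPM in knockout and at 43.8 and 47.3 CPM in wild type (log2 fold change -0.74 ± 0.14, edgeR adjusted p = 0.210, DESeq2 adjusted p = 0.0166). Slc18a3, the vesicular acetylcholine transporter of nerves, had 0.583 and 0.578 CPM in knockout, against 0.605 and 1.30 CPM in wild type. Of the 7 peptide processing genes 7 were lower, beside 50.1% of all genes tested, with a median of -0.53. Pam, which amidates gastrin, had 58.2 and 61.2 CPM in knockout, against 72.4 and 75.8 CPM in wild type, Scg5 had 0.852 and 2.48 CPM in knockout against 3.07 and 5.52 CPM in wild type, and Pcsk1n had 1.39 and 2.15 CPM in knockout against 2.30 and 4.58 CPM in wild type.

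Among genes with at least 20 counts on average, those whose profile over the 4 libraries lay nearest to 7 of these 8 (all but Sst) were found by Euclidean distance of log2 CPM centred on the wild-type mean. For Hrh2 they were Sec14l4, Igfbp2 and Gmpr, at distances of 0.14, 0.16 and 0.18 log2 units. For Ptger3 they were Cbs, Nrtn and Slc2a4, at 0.22, 0.32 and 0.36 units. For Ptger4 they were Pold1, Nup210 and Tube1, at 0.08, 0.11 and 0.12 units. For Hdc the nearest were farther, Mreg, Sult1a1 and Pappa2, at 0.38, 0.43 and 0.48 units. Igfbp2, nearest but one to Hrh2, was at 3.45 and 32.3 CPM in knockout and at 93.4 and 86.4 CPM in wild type. Pold1 had 12.8 and 13.4 CPM in knockout, against 5.04 and 5.83 CPM in wild type. For Cckbr they were Npw, Fabp3 and Kcne1 (0.23, 0.32 and 0.43 units), for Chrm3 Fgfrl1, Pdzd2 and Ctf1 (0.10, 0.13 and 0.14 units), and for Sstr2 Arhgdib, Gm13655 and Adgrg3 (0.06, 0.11 and 0.12 units). With 4 libraries such nearness is a description of these libraries only.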

How the data were processed

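The deposited table holds expected counts per gene, which the authors did not normalize as far as the values show. Per the submitters' processing notes the build was mm10, and per the labels' protocols the library kit was a stranded mRNA one. The sources used here name no aligner, counting program or strand setting. Of the nonzero values 35.0% were not whole, and all were rounded. Of 34866 rows, 34652 matched GENCODE M21 by identifier. Total counts ran from 20327623 to 27946313. The precision of each value is set by these depths and by 2 libraries per genotype.

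Knockout was tested against wild type with edgeR 4.0.16 in R 4.3.3 (quasi-likelihood, robust, TMM, filterByExpr minimum 10, no covariate, Benjamini-Hochberg over 14067 genes). A standard error is the log2 fold change divided by the square root of F. CPM use TMM-scaled library sizes; log2 CPM use a prior count of 2. DESeq2 1.42.0 and limma 3.58.1 (voom) were alternatives, beside other scalings, filters, a replicate block and leaving out each library. Libraries of a genotype were no duplicates (chi-square per degree of freedom 272 in knockout and 139 in wild type). The genes, lists and tests were chosen with earlier results of these data known. All 8 acid-control genes are named; from each list up to 4 non-overlapping genes with the smallest p and at least 20 counts in the higher group are named, and Gast. Other genes, such as Hnmt, Chga and Hhex, were named after their values were seen.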

Additional observations from a re-analysis of the deposited data

How the results depend on the processing

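The direction of each of the 8 genes was kept under all alternatives run, and none of the 25 pathway genes chosen by rule reversed (Hnmt and Gnas, picked after their values were seen, were not run). By edgeR 0 genes passed in either direction. Without a filter 5 passed as higher and 4 as lower, and by DESeq2 571 and 473. Leaving out 1 library gave 0 to 350 higher and 0 to 501 lower, with 9 in all without knockout 1 and 851 without knockout 2, where the lone knockout library is assumed to vary like the others. By DESeq2 the log2 fold change was 1.22 for Ptger4 and -2.97 for Hdc, both past the threshold. Over the leave-one-out fits the median of the 8 ran from -3.33 to -0.43, Hrh2 from -4.67 to -1.57, Chrm3 from -1.55 to -0.070 and Ptger3 from -4.58 to -0.93. The 3 genes passed only without knockout 2.

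As a mean log2 difference of knockout minus wild type per marker level, Hrh2 was -0.17 over the parietal sum, 0.18 over Atp4b alone and -0.86 over the sum without Atp4a and Atp4b. Over that last sum Cckbr was -0.028 (0.66 over the full sum), Chrm3 1.45 (2.13) and Ptger3 -0.49 (0.20). Over Chga alone in place of the endocrine sum, Hdc was -0.19 (-1.45), Sst 1.39 (0.12) and Sstr2 2.30 (1.03). The cause was not tested.

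Deviations of same-numbered libraries from their genotype means correlated at 0.517, which with 2 pairs does not show pairing. With the replicate block 0 genes passed and 3349 had an unadjusted p under 0.05, against 2236 without it. The median of the 8 was then -1.66, Hrh2 -2.91, Hdc -2.96 (adjusted p = 0.0975) and Ptger4 1.24. With 2 libraries per genotype, genes at the depth of Cckbr have wide errors.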
